A study of Homo sapiens with 9 samples.

Results

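Semaphorins, plexins and neuropilins make up one ligand and receptor system, and its genes were followed here through 3 culture media of human neural crest-like cells. The members were taken by gene symbol: every semaphorin of classes 3 to 7, every plexin of types A to D, the plexin domain containing genes PLXDC1 and PLXDC2, and the neuropilins NRP1 and NRP2. They came to 33 of 25593 listed genes, with 20 semaphorins, 9 plexins, 2 plexin domain containing genes and 2 neuropilins. Of these, 30 reached 1 FPKM in at least 3 libraries and were tested. FPKM is the number of sequenced fragments of a gene, corrected for transcript length and for the mapped fragments of the library. The remaining 3, SEMA3G, SEMA4A and SEMA5B, stayed below 1 FPKM in every library.

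The starting cells of every group were H9, a widely used line of human embryonic stem cells. They shared 6 days of differentiation with 10 µM SB431542, which inhibits the receptors for TGF-β, Activin and Nodal. Sorted cells with high CD271 and without CD73 were then grown on fibronectin at 5% oxygen, although GEO's cell type entry calls them positive for both. Group F was expanded with FGF2 at 5 to 10 ng/ml. Group FSB received FGF2 together with 3 to 5 µM SB431542. Group F_FSB was kept in FSB for 4 passages and then in F for 3 more. Each group had 3 cultures, which the study's design text calls biological replicates, harvested at passage 6 to 7. The results therefore describe 1 cell line, and every group, F included, had met SB431542 before expansion.

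Semaphorins are secreted or membrane-bound guidance signals, and plexins are the receptors that carry the signal into the cell. Most secreted class 3 semaphorins first bind a neuropilin, which pairs with an A-type plexin, whereas SEMA3E binds PLXND1 directly. Membrane-bound class 4 semaphorins mostly act through B-type plexins, class 6 through A-type plexins, and SEMA7A through PLXNC1 and integrins. In the embryo these signals steer streams of neural crest cells, growing axons and blood vessels, and cells can both send and receive them.

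Libraries were compared on the authors' FPKM values, whose fragment counts are not in the tables. A rough estimate from olfactory receptor genes put F_FSB replicate 2 at 60.0% of the depth of FSB replicate 1 and the other libraries at 82.2% or more. It rests on only 2 to 8 such genes per library and assumes that their most common low value stands for 1 fragment. Cufflinks' own interval around the 270 values of the tested members had a median half-width of 9.02% of the value, and at most 11.8% for values of 10 FPKM or more. That interval covers counting and assignment within a library, not the spread between cultures. Among F libraries, replicate 1 lay inside the range of the F_FSB libraries for 20 of the 30 tested members, replicate 2 for 12 and replicate 3 for 10. The same count over all genes was not made. F replicate 1 also stood apart from the other F libraries on the second axis of a principal component analysis of all tested genes. That axis held 14.3% of the variance, with F cultures at 4.25, −27.7 and −31.4 and F_FSB cultures at 17.0, 48.6 and −9.12. Results that turn on F replicate 1 are given with and without it. Among FSB libraries, replicates 1 and 2 were close for some members while replicate 3 stood apart. NRP2 read 91.0, 83.8 and 132 FPKM there, SEMA3D 5.87, 6.28 and 1.45, and SEMA5A 23.5, 23.3 and 42.0. For others, such as SEMA4F at 2.76, 2.72 and 2.64, all FSB replicates were close. Whether FSB replicates 1 and 2 share an origin was not tested, so n = 3 may overstate their independence.

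Marker genes moved between the media as well, and their part in the results below was not tested. By the limma test described below, 28.5% of all genes were higher and 13.4% lower in FSB than in F. Summed FPKM of 11 neural crest markers was 167 to 205 in F cultures, 431 to 462 in FSB cultures and 151 to 166 in F_FSB cultures. Of the 7 tested, 4 were higher in FSB than in F. The others were too low to test. FOXD3 was below 0.1 FPKM in every library, and SOX10, PAX3 and ERBB3 reached at most 1.69, 3.63 and 0.554. NGFR, which encodes the sorting marker CD271, was the largest part of the crest sum in each FSB culture. It read 0.725, 41.3 and 18.0 FPKM in F cultures, 134, 123 and 104 in FSB cultures and 1.50, 5.92 and 7.26 in F_FSB cultures. NT5E, which encodes CD73, had means of 72.9, 20.0 and 63.0 FPKM, and SOX9, a crest and cartilage transcription factor, 32.5, 34.15 and 19.5. The sum of 9 mesenchymal stromal markers was 7191 to 7696, 1303 to 1402 and 6634 to 8388 in the same order, and 7 of the 9 were lower in FSB than in F. For 7 Schwann cell and glial markers the sums were 65.7 to 80.9, 34.2 to 37.0 and 62.9 to 93.9, with 1 of 4 tested lower and 1 higher in FSB. For 8 smooth muscle and pericyte markers they were 249.8 to 356, 697 to 1196 and 372 to 513, with 3 higher and 1 lower in FSB. Sums of 6 pluripotency markers were 3.99 to 8.67, 85.8 to 99.3 and 1.73 to 5.46, with 2 of 3 tested higher in FSB. LIN28A alone supplied 74.3 to 85.4 FPKM of the FSB sums, while in FSB cultures POU5F1 was at most 0.141, NANOG at most 0.0464 and TDGF1 below 0.1. Sums of 5 central neuroectoderm markers were 26.8 to 78.9, 191 to 257 and 21.9 to 43.2, nearly all of it NES, an intermediate filament gene, at 191 to 256 FPKM in FSB cultures. NES was the only marker of these tested and was higher in FSB, while SOX2 and PAX6 were at most 0.505 and 0.217 FPKM in any library and SOX1 and OTX2 below 0.1. For 11 peripheral neuron markers the sums were 63.7 to 105, 107 to 154 and 109 to 151, and none of 5 tested passed between FSB and F. Among them, ELAVL3, ELAVL4, ISL1 and POU4F1 were below 0.1 FPKM in every library. Sums of 5 epithelial markers were 35.5 to 112, 109 to 206 and 78.5 to 188, with 2 of 3 tested higher in FSB and CDH1 below 0.1. The 10 endothelial markers summed to at most 15.0 FPKM in any library, with 2 of 5 tested higher and 2 lower in FSB. The 6 melanocyte markers summed to at most 6.00, with 1 of 2 tested higher in FSB and TYR, TYRP1 and DCT below 0.1. The 6 macrophage and blood markers summed to at most 13.7, with PTPRC, CSF1R and SPI1 below 0.1 and the only tested marker not passing.

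FSB against F asks how the system differs when the inhibitor is kept during expansion, and F_FSB with FSB asks how it differs after the inhibitor is withdrawn. By the ratio of mean FPKM, the gene for the co-receptor NRP2 was 9.03-fold higher in FSB than in F. By the same ratio the class 3 ligand SEMA3C was 13.9-fold lower. The log2 changes that were tested are given below. The membrane-bound ligands SEMA4B, SEMA4F and SEMA4G and the receptors PLXNB2 and PLXNB3 were also lower. Between F_FSB and FSB each of these 7 genes passed again, in the opposite direction. PLXNB3 was low in all media and was tested only because of its F cultures, which favours a lower value in FSB. The class 3 ligands SEMA3D and SEMA3E were higher in F_FSB than in FSB, although neither passed between FSB and F. SEMA3D kept that call under every alternative setting of the fit, while SEMA3E lost it under several. SEMA3A and PLXND1, both abundant in all media, passed in no comparison.

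By limma on log2(FPKM + 1) with Benjamini-Hochberg (BH) adjustment over 13216 genes and a threshold of 0.05, 13 of the 30 tested members differed between FSB and F. Among all genes tested, 41.9% did, so the members' share of 43.3% was near the background. The directions were 3 members higher (10.0%) and 10 lower (33.3%), against 28.5% and 13.4% of all genes. Without overlap between the cultures, 5 members were higher and 11 lower, against 38.7% and 19.2% of all genes. The members' median log2 change was −0.56 and that of all genes 0.14. The 3 higher were NRP2, PLXNA1 and SEMA4D. The 10 lower were SEMA3C, SEMA4B, SEMA4F, SEMA4G, SEMA7A, PLXNA4, PLXNB2, PLXNB3, PLXNC1 and PLXDC1. With median ratio scaling between libraries, which moved the median of all genes by more than 0.1 on the log2 scale, from 0.14 to 0.00, 1 member was higher and 11 lower. That scaling also moved the share of all called genes that were higher from 68.0% to 49.6%, with 18.3% of all genes higher and 18.6% lower.

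F_FSB against FSB gave 10 members higher and 3 lower, where 13.7% of all genes were higher, 28.2% lower and 41.8% either. Cultures did not overlap for 14 higher and 4 lower members, against 19.2% and 36.6% of all genes. With median ratio scaling, 10 members were higher and 2 lower, and 19.0% of all genes were higher and 19.1% lower. The 3 lower were again NRP2, PLXNA1 and SEMA4D. The 10 higher were SEMA3C, SEMA3D, SEMA3E, SEMA4B, SEMA4F, SEMA4G, PLXNB2, PLXNB3, PLXDC1 and PLXDC2. These comparisons share the FSB libraries, so the members that passed in both rest in part on the same cultures. In all, 10 members passed in both, 16 in at least 1 and 14 in neither. PLXNB3, PLXNC1 and SEMA4D reached the level needed for testing only because of particular groups. Without those 3 genes, 10 of 27 passed between FSB and F and 11 of 27 between F_FSB and FSB. PLXDC1 and PLXNA4 remain among the 27, although they reached 1 FPKM in every F and F_FSB culture and in no FSB culture. They were thus tested through the groups where they were high, which favours a lower value in FSB.

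**Figure D1:**
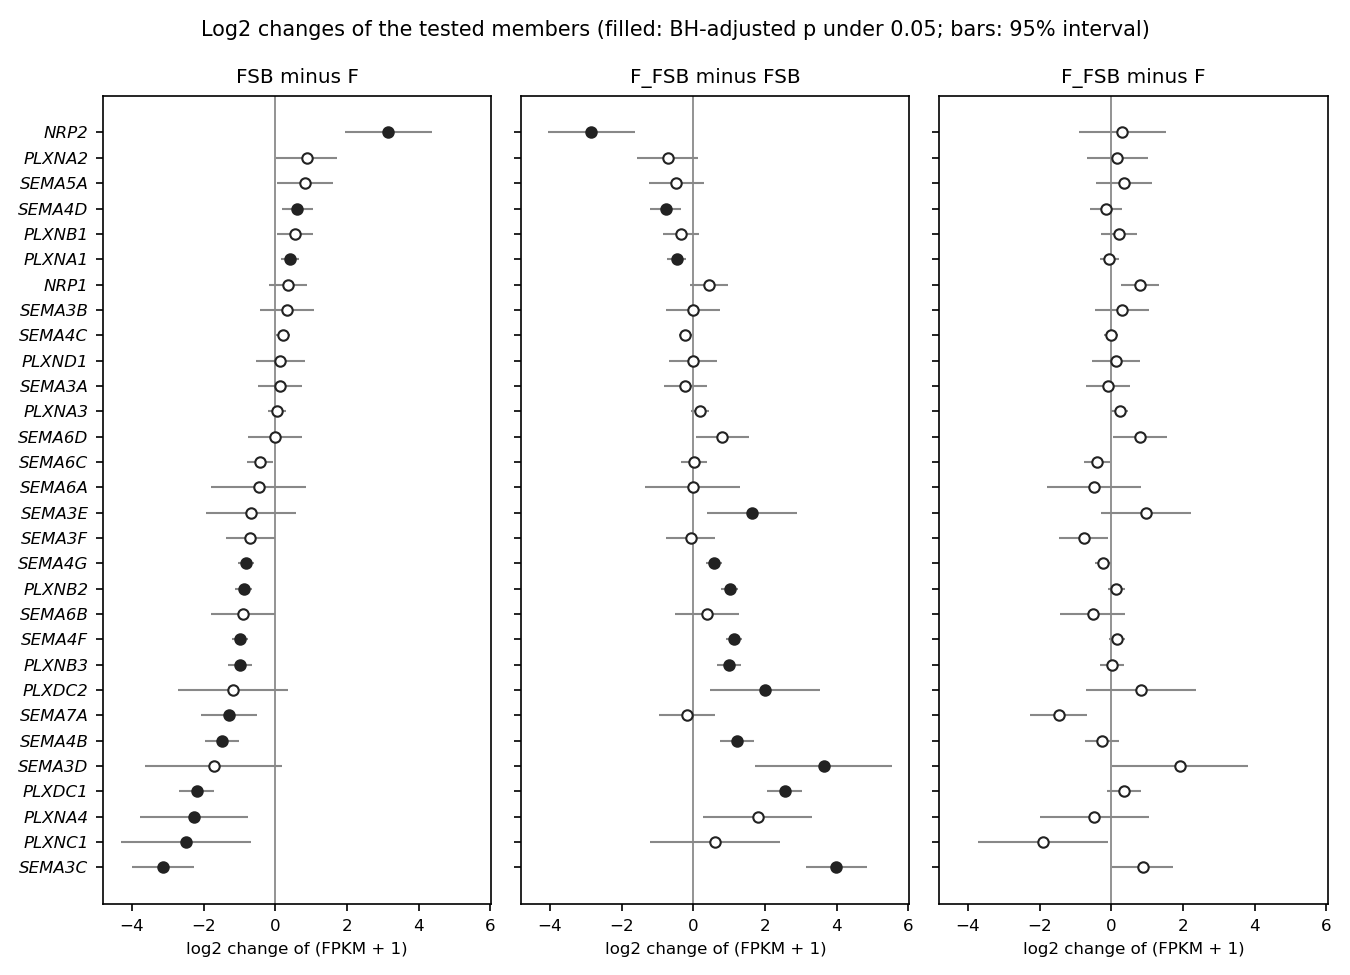
Each panel shows 1 comparison, with the log2 change of FPKM + 1 on the horizontal axis and the 30 tested members in rows ordered by FSB minus F. Points are estimates, bars are 95% confidence intervals, and filled points passed limma with BH adjustment: 13 in each of the panels that involve FSB and 0 in F_FSB minus F.

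Among the secreted class 3 ligands, SEMA3C (chromosome 7, 80371854 to 80548667 on GRCh37) had the largest log2 changes in both comparisons that involve FSB. SEMA3C guides axons and migrating crest cells and is best known from the outflow tract of the heart. It read 46.6, 22.8 and 15.3 FPKM in the F cultures, 1.89, 1.85 and 2.38 in FSB, and 49.4, 62.9 and 33.9 in F_FSB. Every FSB culture was below every other culture, with a wide gap. Group means were 28.2 ± 16.3, 2.04 ± 0.296 and 48.7 ± 14.5 (SD, n = 3). The log2 change was −3.13 for FSB minus F (SE 0.37, limma, BH-adjusted p = 0.000663) and 4.00 for F_FSB minus FSB (SE 0.37, limma, BH-adjusted p = 0.000268). In these bulk samples, fewer cells expressing a gene and less RNA per cell cannot be told apart.

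SEMA3D (chromosome 7, 84624869 to 84751247), a ligand known from crest and vascular guidance, was uneven in F, at 55.5, 4.52 and 12.9 FPKM. FSB cultures held 5.87, 6.28 and 1.45 FPKM and F_FSB cultures 49.9, 41.1 and 109. F and FSB overlapped because of F replicate 2, while all F_FSB cultures lay above all FSB cultures. The log2 change was 3.63 for F_FSB minus FSB (SE 0.83, limma, BH-adjusted p = 0.0093) and −1.72 for FSB minus F (limma, BH-adjusted p = 0.13). Without F replicate 2 the latter passed, at −2.50 (limma, BH-adjusted p = 0.0398, in a range of 0.0398 to 0.35 over all alternatives).

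SEMA3E (chromosome 7, 82993222 to 83278479), the ligand of PLXND1, followed the same order at lower levels. It read 11.0, 1.60 and 7.33 FPKM in F cultures, 2.38, 2.13 and 5.11 in FSB cultures and 8.82, 16.3 and 10.3 in F_FSB cultures. F_FSB lay above FSB without overlap, and F spanned both. F_FSB minus FSB was 1.63 (SE 0.54, limma, BH-adjusted p = 0.0421). The call was lost with no filter on low values, with the replicate block, and without F replicate 3, FSB replicate 1 or 2, or any of the F_FSB replicates 1, 2 and 3 (limma, BH-adjusted p of 0.00696 to 0.125 over the alternatives).

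SEMA3A (chromosome 7, 83587659 to 83824217), which repels axons and crest cells through NRP1, was abundant in every culture. Its values were 47.6, 29.8 and 71.3 FPKM in F cultures, 45.9, 53.1 and 54.9 in FSB cultures and 41.7, 48.5 and 41.7 in F_FSB cultures. The FSB and F_FSB cultures both lay within the range of F. For FSB minus F the log2 change was 0.13 (limma, BH-adjusted p = 0.72). Its 95% interval was −0.48 to 0.74, so differences of that range remain compatible with the values.

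SEMA3F, a ligand that binds mainly NRP2, read 9.24, 17.3 and 20.9 FPKM in F cultures, 11.0, 9.24 and 6.84 in FSB cultures and 7.43, 11.0 and 7.25 in F_FSB cultures. Only F replicates 2 and 3 stood higher than the rest. It did not pass for FSB minus F (log2 change −0.70, limma, BH-adjusted p = 0.0934) but did without F replicate 1 (−1.02, limma, BH-adjusted p = 0.014, the lowest over the alternatives, up to 0.261). SEMA3B stayed between 1.13 and 4.90 FPKM and passed in no comparison. SEMA3G had a highest value of 0.861 FPKM, in F_FSB replicate 3. The SEMA3F locus overlaps the uncharacterized gene LOC100129060 over 671 bases, and that gene reached at most 1.59 FPKM.

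Since FPKM is per length, the 7 class 3 genes can be summed within a library. The sum was 172, 78.5 and 130 FPKM in F cultures, 69.9, 75.2 and 72.9 in FSB cultures and 160, 182 and 208 in F_FSB cultures. FSB cultures were all below F, and F_FSB cultures overlapped F. SEMA3A made up 40.2% ± 13.8, 70.5% ± 4.78 and 24.3% ± 3.68 of the class 3 sum in the F, FSB and F_FSB cultures (SD, n = 3). SEMA3C supplied 22.6% ± 9.45, 2.80% ± 0.413 and 27.3% ± 9.71, and SEMA3D 16.0% ± 14.2, 6.25% ± 3.69 and 35.4% ± 15.3. The class 3 RNA of FSB cultures was thus mostly SEMA3A, while that of F_FSB cultures was spread over SEMA3D, SEMA3C and SEMA3A.

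**Figure D2:**
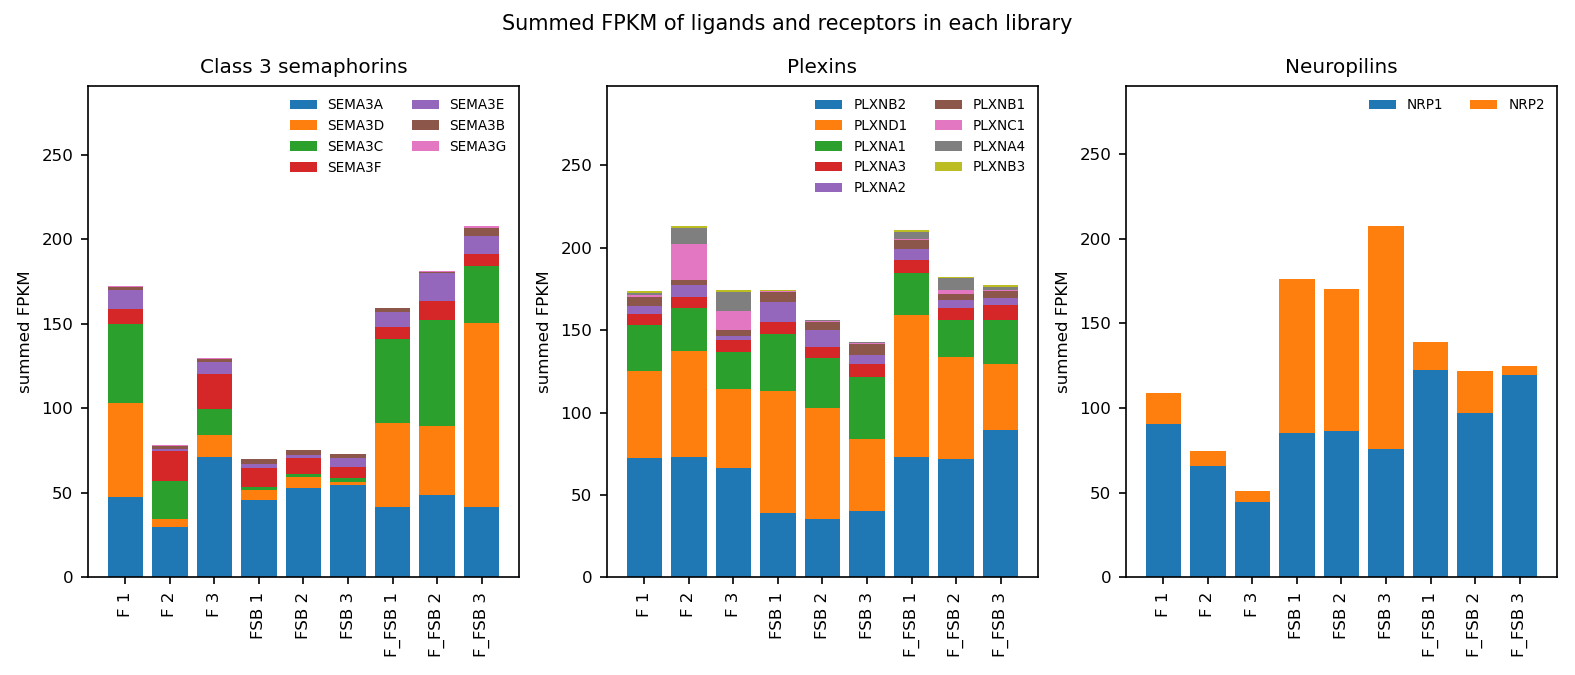
Stacked bars give the FPKM of each gene in each of the 9 libraries, on a linear axis from 0, for class 3 semaphorins, plexins and neuropilins. The class 3 sum lay between 69.9 and 75.2 in FSB, the plexin sum between 143 and 213 over all libraries, and NRP2 was the larger neuropilin only in FSB replicates 1 and 3.

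Of the 6 membrane-bound class 4 genes, SEMA4B, SEMA4F and SEMA4G were low in FSB. SEMA4F (chromosome 2, 74881393 to 74909185) read 7.07, 5.78 and 6.08 FPKM in F cultures, 2.76, 2.72 and 2.64 in FSB cultures and 7.82, 6.55 and 7.11 in F_FSB cultures. The FSB cultures were the lowest and differed little among themselves. The log2 change was −0.98 for FSB minus F (SE 0.10, limma, BH-adjusted p = 0.000326) and 1.14 for F_FSB minus FSB (SE 0.10, limma, BH-adjusted p = 0.000205).

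SEMA4B (chromosome 15, 90728152 to 90772892) read 5.75, 6.89 and 6.23 FPKM in F cultures, 1.53, 1.39 and 1.96 in FSB cultures and 3.53, 5.05 and 7.31 in F_FSB cultures. Again FSB lay below both other groups, which overlapped each other. It fell by 1.48 on the log2 scale in FSB against F (SE 0.21, limma, BH-adjusted p = 0.00126) and rose by 1.23 in F_FSB against FSB (SE 0.21, limma, BH-adjusted p = 0.00259).

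SEMA4G (chromosome 10, 102732286 to 102745373) read 4.16, 3.87 and 4.30 FPKM in F cultures, 1.76, 1.83 and 2.08 in FSB cultures and 3.21, 3.05 and 3.76 in F_FSB cultures. The groups did not overlap, with F_FSB between FSB and F. The changes were −0.82 (SE 0.10, limma, BH-adjusted p = 0.000667) and 0.58 (SE 0.10, limma, BH-adjusted p = 0.00256). Its locus overlaps MRPL43, a mitochondrial ribosomal protein gene on the opposite strand, over 7795 bases. MRPL43 had means of 38.7, 32.5 and 40.4 FPKM and passed in the same directions, at −0.25 and 0.30 (limma, BH-adjusted p = 0.0375 and 0.0163). The libraries were strand specific, but no source used here states whether strand entered the quantification, so reads of these genes may be shared.

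SEMA4D (chromosome 9, 91975706 to 92094611), the ligand of PLXNB1 best known from immune cells, went the other way at low levels. F cultures held 0.959, 0.714 and 1.31 FPKM, FSB cultures 2.17, 1.85 and 2.13, and F_FSB cultures 1.20, 0.884 and 0.370. FSB lay above both other groups without overlap. The log2 change was 0.62 for FSB minus F (SE 0.19, limma, BH-adjusted p = 0.0322) and −0.77 for F_FSB minus FSB (SE 0.19, limma, BH-adjusted p = 0.0134). SEMA4D passed the level for testing only through the FSB cultures. Its call between FSB and F was lost with a pseudocount of 0.1, with median ratio or same sum scaling, with the replicate block, and on leaving out F replicate 1 or 2, or FSB replicate 1, 2 or 3 (limma, BH-adjusted p of 0.0125 to 0.101 over the alternatives).

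SEMA4C, a PLXNB2 ligand and the most abundant class 4 gene, differed little in size. It read 13.2, 12.7 and 14.2 FPKM in F cultures, 15.4, 16.1 and 15.4 in FSB cultures and 13.7, 14.1 and 12.05 in F_FSB cultures. FSB was the highest group without overlap, but changes of 0.22 and −0.23 on the log2 scale missed the threshold (limma, BH-adjusted p = 0.0606 and 0.053). SEMA4A averaged 0.437, 0.112 and 0.303 FPKM in these groups, below the level for testing.

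Class 5 to 7 semaphorins passed in 1 case. SEMA7A (chromosome 15, 74701630 to 74726299), which is held to the membrane by a lipid anchor, read 5.36, 12.7 and 18.5 FPKM in F cultures, 3.56, 3.85 and 4.24 in FSB cultures and 3.62, 3.16 and 3.20 in F_FSB cultures. F was the highest group without overlap, and FSB and F_FSB overlapped. FSB minus F was −1.29 (SE 0.34, limma, BH-adjusted p = 0.0185), a call lost on leaving out F replicate 2, or FSB replicate 1 or 2 (limma, BH-adjusted p of 0.000625 to 0.0589 over the alternatives). F_FSB minus FSB was −0.17 (limma, BH-adjusted p = 0.708). SEMA7A thus did not follow the order of SEMA3C and SEMA4F, and F_FSB minus F was −1.47 (limma, BH-adjusted p = 0.419). Without F replicate 1 that last difference passed, at −1.92 (limma, BH-adjusted p = 0.00977, in a range up to 0.963 over the alternatives).

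SEMA5A, a thrombospondin-repeat semaphorin, read 13.2, 22.6 and 12.5 FPKM in F cultures, 23.5, 23.3 and 42.0 in FSB cultures and 20.8, 13.8 and 28.6 in F_FSB cultures. FSB lay just above F without overlap, and the change of 0.83 did not pass (limma, BH-adjusted p = 0.0789). SEMA5B stayed at or below 0.584 FPKM. The class 6 genes SEMA6A, SEMA6B, SEMA6C and SEMA6D, ligands of A-type plexins, passed in no comparison. SEMA6A ranged from 3.14 to 22.8 FPKM, SEMA6B from 5.50 to 26.8, SEMA6C from 2.45 to 4.80 and SEMA6D from 0.670 to 4.51. SEMA6D was higher in all F_FSB cultures, at 4.51, 4.14 and 4.01, than in the FSB cultures, at 1.84, 1.69 and 2.45, with a change of 0.81 (limma, BH-adjusted p = 0.0774). That change passed with only those groups in the fit and without F replicate 1 or 2 (limma, BH-adjusted p of 0.0048 to 0.186 over the alternatives).

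Of the neuropilins, NRP2 (chromosome 2, 206547224 to 206662857), a co-receptor for SEMA3F and for VEGF-C, differed most. It read 18.4, 8.85 and 6.73 FPKM in F cultures, 91.0, 83.8 and 132 in FSB cultures and 16.5, 24.5 and 5.29 in F_FSB cultures. All FSB cultures were above all others, and F and F_FSB overlapped. The means were 11.3 ± 6.20, 102 ± 25.8 and 15.4 ± 9.66 (SD, n = 3). The log2 change was 3.15 for FSB minus F (SE 0.53, limma, BH-adjusted p = 0.00268) and −2.84 for F_FSB minus FSB (SE 0.53, limma, BH-adjusted p = 0.0039).

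NRP1 (chromosome 10, 33466419 to 33623833), the co-receptor of SEMA3A and VEGF-A, read 90.7, 65.9 and 44.3 FPKM in F cultures, 85.4, 86.3 and 75.6 in FSB cultures and 123, 97.1 and 119 in F_FSB cultures. F_FSB was above both other groups without overlap. None of the changes passed: FSB minus F was 0.35, F_FSB minus FSB 0.44 and F_FSB minus F 0.80 (limma, BH-adjusted p = 0.254, 0.157 and 0.501). FSB minus F passed without F replicate 1, at 0.60 (limma, BH-adjusted p = 0.0409, in a range up to 0.718 over the alternatives), and F_FSB minus FSB passed with only those groups in the fit (limma, BH-adjusted p = 0.0319, in a range up to 0.358). NRP1 was thus the main neuropilin in F and F_FSB, where NRP2 made up 14.0% ± 2.59 and 12.1% ± 7.96 of their sum, and shared it with NRP2 in FSB, where NRP2 made up 54.8% ± 7.64 (SD, n = 3). The ratio of NRP2 to NRP1 FPKM was 0.202, 0.134 and 0.152 in F, 1.07, 0.9704 and 1.74 in FSB, and 0.135, 0.253 and 0.0443 in F_FSB.

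**Figure D3:**
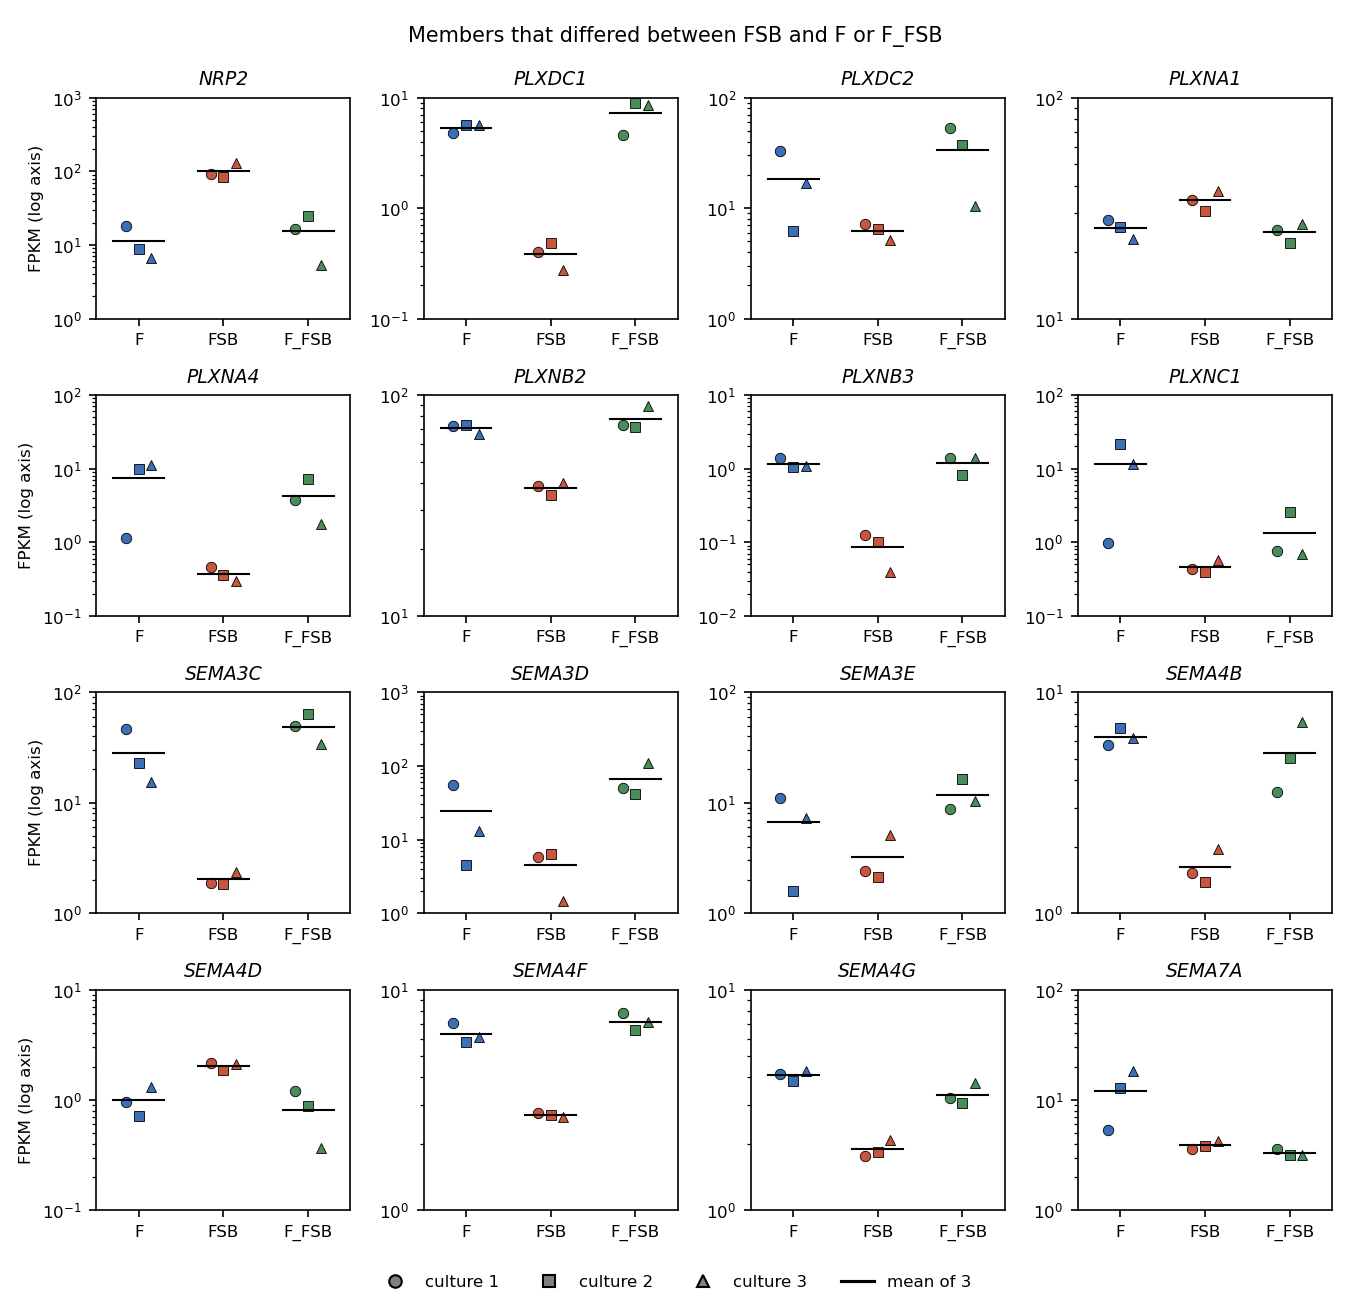
FPKM on a log axis for the 16 members that passed limma with BH adjustment in FSB minus F or F_FSB minus FSB, 1 panel per gene, with point shapes for cultures 1, 2 and 3 and a line at each group mean. NRP2 is highest in all 3 FSB cultures, SEMA3C, SEMA4F, PLXNB2 and PLXDC1 are lowest there, and PLXNC1 spans 0.980 to 21.9 FPKM within F.

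Among the plexins, PLXNB2 (chromosome 22, 50713408 to 50746001), a class 4 receptor, had the highest mean in F and F_FSB. It read 72.6, 72.9 and 66.6 FPKM in F cultures, 38.8, 35.2 and 40.0 in FSB cultures and 73.0, 71.7 and 89.2 in F_FSB cultures. FSB was the lowest group by a wide margin against a small spread. The log2 change was −0.88 for FSB minus F (SE 0.10, limma, BH-adjusted p = 0.00063) and 1.01 for F_FSB minus FSB (SE 0.10, limma, BH-adjusted p = 0.000374). PLXNB2 supplied 38.1% ± 3.79, 24.3% ± 3.27 and 41.4% ± 8.04 of summed plexin FPKM in these groups (SD, n = 3).

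PLXNB3 (chromosome X, 153029651 to 153044801), a receptor for SEMA5A, was low in all media. It read 1.39, 1.05 and 1.07 FPKM in F cultures, 0.124, 0.0992 and 0.0389 in FSB cultures and 1.37, 0.808 and 1.39 in F_FSB cultures. The FSB cultures were far below the others, and in FSB replicate 3 the interval Cufflinks gave, up to 0.0853, reached 0. The changes were −0.99 and 1.00 (SE 0.15 each, limma, BH-adjusted p = 0.00152 and 0.00143). The gene would not have been tested without the F cultures, so its F values had to be near or above 1 FPKM for it to be counted.

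PLXNB1, the SEMA4D receptor, ranged from 2.61 to 6.64 FPKM and did not pass for FSB minus F at 0.54 (limma, BH-adjusted p = 0.0801). It passed without F replicate 1 and with the replicate block (limma, BH-adjusted p = 0.0223 and 0.0346, in a range up to 0.231). Its group means were 3.84, 5.89 and 4.51 FPKM. The summed B-type plexins came to 75.7 ± 4.07, 44.0 ± 3.22 and 83.7 ± 9.82 FPKM (SD, n = 3), nearly all of it PLXNB2.

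PLXNA1 (chromosome 3, 126707437 to 126756235), an A-type receptor that pairs with neuropilins, read 27.9, 26.0 and 23.0 FPKM in F cultures, 34.5, 30.8 and 37.6 in FSB cultures and 25.1, 22.0 and 26.7 in F_FSB cultures. FSB was the highest group without overlap. The change was 0.41 for FSB minus F (SE 0.11, limma, BH-adjusted p = 0.021) and −0.46 for F_FSB minus FSB (SE 0.11, limma, BH-adjusted p = 0.0119). Relative to the median of all genes the first was 0.27. It was lost with median ratio, same sum and quantile scaling and without F replicate 3, FSB replicate 1 or FSB replicate 3 (limma, BH-adjusted p of 0.0185 to 0.187 over the alternatives). The second was lost with median ratio and quantile scaling (limma, BH-adjusted p of 0.0112 to 0.0738 over the alternatives).

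PLXNA4 (chromosome 7, 131808091 to 132333447), a SEMA3A receptor of sensory and sympathetic neurons, read 1.14, 9.89 and 11.4 FPKM in F cultures, 0.462, 0.364 and 0.299 in FSB cultures and 3.75, 7.19 and 1.77 in F_FSB cultures. FSB was the lowest group without overlap, while F and F_FSB each varied several-fold. FSB minus F was −2.27 (SE 0.66, limma, BH-adjusted p = 0.0257), a call lost on leaving out F replicate 2 or 3, or any single FSB replicate (limma, BH-adjusted p of 0.0019 to 0.083 over the alternatives). F_FSB minus FSB, at 1.79, missed the threshold (limma, BH-adjusted p = 0.0586). That change passed with a pseudocount of 0.1, with only those groups in the fit, and without F replicate 1 or F_FSB replicate 3 (limma, BH-adjusted p of 0.00669 to 0.156 over the alternatives).

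PLXNA2, another A-type receptor, averaged 4.86, 9.41 and 5.19 FPKM and missed the threshold at 0.88 and −0.71 (limma, BH-adjusted p = 0.0898 and 0.159). With the replicate block both passed (limma, BH-adjusted p = 0.0242 and 0.045), and over the alternatives the values ran to 0.247 and 0.378. FSB minus F also passed without F replicate 2, at 1.19, and without FSB replicate 3, at 1.17 (limma, BH-adjusted p = 0.0413 and 0.0459). PLXNA3 stayed between 6.24 and 9.09 FPKM, with a change of 0.05 for FSB minus F (95% interval −0.19 to 0.29). The A-type receptors therefore did not share an order, since PLXNA4 was lowest in FSB and PLXNA1 highest.

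PLXNC1 (chromosome 12, 94542499 to 94701451), the SEMA7A receptor, was high in 2 F cultures. It read 0.980, 21.9 and 11.5 FPKM in F cultures, 0.431, 0.398 and 0.575 in FSB cultures and 0.761, 2.60 and 0.702 in F_FSB cultures. F replicate 1 lay within the F_FSB range, and the F cultures spanned 22.3-fold. FSB minus F was −2.50 (SE 0.79, limma, BH-adjusted p = 0.0351). The call was lost with no filter on low values, with only those groups in the fit, and on leaving out F replicate 2 or 3, or any single FSB replicate (limma, BH-adjusted p of 0.00108 to 0.10 over the alternatives). F_FSB minus F was −1.90 (limma, BH-adjusted p = 0.542) and passed without F replicate 1, at −2.94 (limma, BH-adjusted p = 0.0315, in a range up to 0.963 over the alternatives). SEMA7A, its ligand, had its 2 highest values in the same cultures, F replicates 2 and 3, but so did PLXNA4 and SEMA3F. The highest value was in replicate 2 for PLXNC1 and in replicate 3 for SEMA7A.

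PLXND1, the SEMA3E receptor of vessels and crest, was abundant throughout. It read 52.9, 64.7 and 47.5 FPKM in F cultures, 74.3, 67.5 and 44.0 in FSB cultures and 86.3, 62.2 and 40.2 in F_FSB cultures. All groups overlapped, and the change for FSB minus F was 0.15 with a 95% interval of −0.53 to 0.82 (limma, BH-adjusted p = 0.715). As a share of summed plexin FPKM it had 29.3% ± 1.81 in F cultures and 38.9% ± 7.00 in FSB cultures (SD, n = 3), and it was the most abundant plexin in the 3 FSB cultures and in F_FSB replicate 1.

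**Figure D4:**
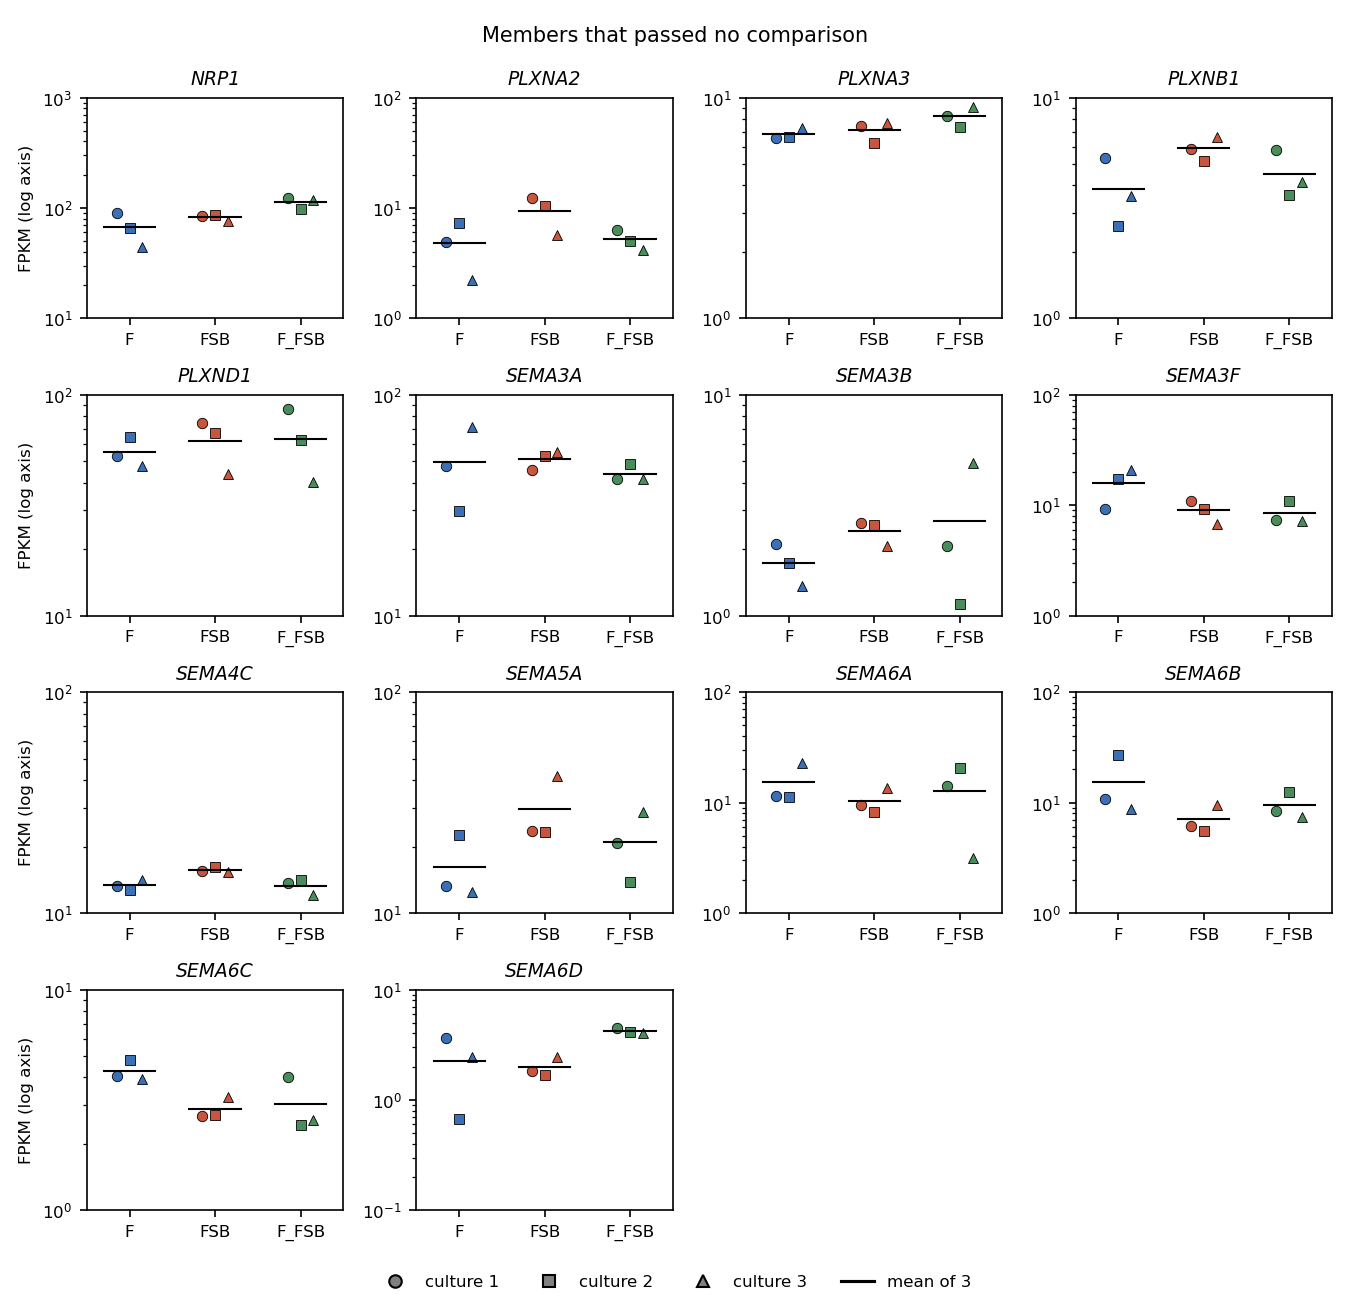
FPKM on a log axis for the 14 tested members that passed in neither FSB minus F nor F_FSB minus FSB, drawn as in the plot of members that passed. SEMA3A, NRP1 and PLXND1 are abundant in all groups, and NRP1 is highest in the F_FSB cultures, at 97.1 to 123 FPKM.

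PLXDC1 and PLXDC2 share a domain with plexins but are separate transmembrane proteins, first known from tumour endothelium. PLXDC1 (chromosome 17, 37219556 to 37307902) read 4.79, 5.62 and 5.62 FPKM in F cultures, 0.398, 0.485 and 0.278 in FSB cultures and 4.58, 8.91 and 8.52 in F_FSB cultures. FSB was far below both other groups, 13.8-fold under F and 19.0-fold under F_FSB by the means. On the log2 scale it differed by −2.19 and 2.55 (SE 0.21 each, limma, BH-adjusted p = 0.000281 and 0.000184). The locus overlaps LOC100131347 over 18149 bases, and that gene reached at most 0.160 FPKM.

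PLXDC2 (chromosome 10, 20105372 to 20569115) read 32.6, 6.21 and 16.8 FPKM in F cultures, 7.12, 6.49 and 5.19 in FSB cultures and 53.5, 37.5 and 10.4 in F_FSB cultures. F_FSB lay above FSB without overlap, and F overlapped both. F_FSB minus FSB was 2.00 (SE 0.67, limma, BH-adjusted p = 0.0421), and the call was lost with no filter on low values and without F replicate 3, FSB replicate 1, 2 or 3, or F_FSB replicate 1 or 2 (limma, BH-adjusted p of 0.0113 to 0.123 over the alternatives). FSB minus F was −1.17 (limma, BH-adjusted p = 0.19).

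The comparison of F_FSB with F asks whether cells moved out of the inhibitor differ from cells expanded without it. None of the 30 members passed limma with BH adjustment, and of all genes 0.00757% did. At an unadjusted p under 0.05, 9 of 30 members (30.0%) differed, against 9.04% of all genes, and no multiple testing correction applies to that count. Cultures did not overlap for 5 members. NRP1, PLXNA3 and SEMA6D were higher in F_FSB and SEMA4G and SEMA7A lower, where 6.28% of all genes were higher without overlap and 6.76% lower. This does not show that the groups were alike: the 95% interval for SEMA3D was 0.02 to 3.82, and for PLXNC1 −3.72 to −0.09. Without F replicate 1, the F library most often inside the F_FSB range for these members, PLXNC1 and SEMA7A passed. The count over all genes was then 77 instead of 1. Every library was left out in turn, but leaving out this one favours a wider difference, so these passes are not separate evidence of one.

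Other genes of the system were read from lists of known partners, of which CSPG4 is also among the smooth muscle and pericyte markers. Of 19 co-receptors and other partners, 12 were tested, and 3 were higher and 5 lower in FSB than in F (median log2 change 0.01), while 5 were higher and 2 lower in F_FSB than in FSB (median 0.34). Over all genes, 28.5% were higher and 13.4% lower in FSB than in F (median 0.14), and 13.7% were higher and 28.2% lower in F_FSB than in FSB (median −0.13). ITGA1, an integrin subunit that binds collagen, was at 4.62 ± 2.15, 102 ± 31.6 and 22.6 ± 9.25 FPKM in the F, FSB and F_FSB cultures (SD, n = 3, 4.21 and −2.17 on the log2 scale, limma, BH-adjusted p = 0.000243 and 0.00337). MET, the HGF receptor that associates with B-type plexins, was at 7.31 ± 5.99, 0.458 ± 0.158 and 9.73 ± 1.69 FPKM (−2.29 and 2.87, limma, BH-adjusted p = 0.00357 and 0.00134). CSPG4, a proteoglycan of pericytes and crest cells, was at 28.0 ± 11.96, 5.00 ± 0.267 and 20.8 ± 4.18 FPKM (−2.19 and 1.84, limma, BH-adjusted p = 0.000792 and 0.00149). ERBB2, a receptor kinase that couples to PLXNB1, was at 32.4 ± 3.23, 20.3 ± 1.94 and 27.4 ± 3.28 FPKM (−0.65 and 0.41, limma, BH-adjusted p = 0.00351 and 0.0219).

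Of 36 cytoplasmic effectors of plexins, 34 were tested. There were 13 higher and 4 lower in FSB than in F (median 0.19), and 3 higher and 12 lower in F_FSB than in FSB (median −0.22). These directions were the same as, and the counts near, those of all genes, with 28.5% higher and 13.4% lower, then 13.7% higher and 28.2% lower. RHOD, a small GTPase that binds plexins, was at 22.3 ± 1.55, 4.40 ± 0.753 and 16.6 ± 1.12 FPKM in F, FSB and F_FSB (SD, n = 3, −2.11 and 1.71, limma, BH-adjusted p = 3.13e-05 and 9.01e-05). MICAL3, of the family of redox enzymes that act on actin, was at 3.32 ± 0.814, 14.8 ± 1.88 and 3.53 ± 0.539 FPKM (1.88 and −1.80, limma, BH-adjusted p = 0.000178 and 0.000229). ROCK2, a kinase that RhoA activates, was at 23.0 ± 1.29, 44.3 ± 1.84 and 24.8 ± 1.72 FPKM (0.92 and −0.82, limma, BH-adjusted p = 0.000187 and 0.000313). SH3BP1, a GTPase-activating protein for Rac, was at 7.14 ± 1.62, 19.4 ± 1.52 and 5.60 ± 0.679 FPKM (1.34 and −1.63, limma, BH-adjusted p = 0.000617 and 0.000304).

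All 7 other ligands that bind neuropilins were tested. In FSB against F, 2 were higher and 3 lower (median −0.35), and in F_FSB against FSB 3 were higher and 1 lower (median 0.70), where 41.9% and 41.8% of all genes passed in either direction. HGF, the MET ligand, was at 81.2 ± 28.5, 1.79 ± 0.909 and 114 ± 66.1 FPKM (SD, n = 3, −4.88 and 5.20, limma, BH-adjusted p = 0.000434 and 0.000355), so both HGF and MET were low in FSB. PDGFB, a growth factor for pericytes, was at 0.130 ± 0.0434, 5.12 ± 0.960 and 0.230 ± 0.0885 FPKM (2.43 and −2.31, limma, BH-adjusted p = 3.58e-05 and 4.8e-05). VEGFA was at 26.6 ± 4.53, 11.7 ± 0.775 and 23.7 ± 2.17 FPKM (−1.10 and 0.95, limma, BH-adjusted p = 0.000655 and 0.00114). VEGFB was at 52.2 ± 8.17, 27.6 ± 2.61 and 65.9 ± 3.19 FPKM (−0.89 and 1.23, limma, BH-adjusted p = 0.00127 and 0.000362). None of the tested genes of these 3 lists passed in F_FSB minus F.

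The promoters of members that passed in both comparisons were looked at beside their values, in the RefSeq promoter table of GRCh38.p14. It held 49 windows for 28 of the 33 members, and 48 of them matched GRCh37 exactly once. NRP1, PLXDC1, SEMA3A, SEMA6A and SEMA6B had no entry. The 250 bases before the RefSeq start are shown for the 4 such members whose start lay within 20 bases of the 5′ end of the locus in the authors' tables: NRP2, which was high in FSB, and SEMA4B, SEMA4F and SEMA4G, which were low there. Capitals mark a match to a motif searched on both strands. The motifs were the SMAD box CAGACA, the AP-1 site TGANTCA, the TEAD site GGAATG, the E-box CAGGTG and the TATA box TATAAA, none of which overlaps another.
NRP2, chr2:206546975-206547224, plus strand: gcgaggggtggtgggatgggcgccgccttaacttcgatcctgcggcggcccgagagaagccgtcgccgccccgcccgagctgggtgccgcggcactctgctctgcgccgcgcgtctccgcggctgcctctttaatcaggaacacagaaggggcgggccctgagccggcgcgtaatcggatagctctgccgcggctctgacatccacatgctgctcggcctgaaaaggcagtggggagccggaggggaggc
SEMA4B, chr15:90727902-90728151, plus strand: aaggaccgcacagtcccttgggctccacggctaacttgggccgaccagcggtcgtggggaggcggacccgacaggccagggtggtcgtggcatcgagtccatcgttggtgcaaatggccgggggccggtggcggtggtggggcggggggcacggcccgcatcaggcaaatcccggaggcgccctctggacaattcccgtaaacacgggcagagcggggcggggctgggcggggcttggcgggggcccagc
SEMA4F, chr2:74881124-74881373, plus strand: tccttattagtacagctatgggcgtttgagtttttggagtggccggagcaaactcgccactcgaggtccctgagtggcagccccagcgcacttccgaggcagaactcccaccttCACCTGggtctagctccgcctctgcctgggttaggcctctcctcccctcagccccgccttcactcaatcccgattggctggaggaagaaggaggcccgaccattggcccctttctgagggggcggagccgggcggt
SEMA4G, chr10:102732036-102732285, plus strand: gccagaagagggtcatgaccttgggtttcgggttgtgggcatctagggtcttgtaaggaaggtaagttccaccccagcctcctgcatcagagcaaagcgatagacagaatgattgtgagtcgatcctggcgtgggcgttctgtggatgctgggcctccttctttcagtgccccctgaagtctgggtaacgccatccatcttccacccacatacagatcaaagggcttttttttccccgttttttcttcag

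The NRP2 window was 70.0% G and C with 29 CG dinucleotides, the SEMA4B window 72.0% with 24, the SEMA4F window 62.4% with 13 and the SEMA4G window 52.4% with 7. SEMA4F held 1 E-box, on the minus strand, with its first base 136 bases upstream of the start. The windows of NRP2, SEMA4B and SEMA4G held none of the 5 motifs. With 1 window for each of 25 tested members, 2 held a SMAD box, 3 a TEAD site, 3 an E-box and none an AP-1 site or a TATA box. Of 35116 windows in the table, 13.6% held a SMAD box, 6.57% an AP-1 site, 11.9% a TEAD site, 17.5% an E-box and 10.7% a TATA box. In the 13259 windows of tested genes the shares were 10.48%, 4.25%, 10.1%, 14.8% and 5.78% in the same order. Among the members lower in FSB, PLXNB2 had the SMAD box 221 bases upstream, in a window 5903 bases inside its locus, and PLXNB3 had a TEAD site 222 bases upstream and E-boxes at 186 and 179. A match is a run of letters, not a site shown to be bound.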

How the data were processed

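Total RNA of 9 cultures was sequenced in strand-specific libraries. The authors deposited 1 Cufflinks gene table per library with FPKM values, per the file headers, normalized to each library's own fragments. TopHat2 2.0.12, Cufflinks 2.1.1 and GRCh37 are named in the submitters' processing notes, and the options used are not given in the sources here. The members and lists were chosen with earlier results of these data known. Loci without status OK in every library (95) and genes with 1 FPKM or more in fewer than 3 libraries were left out, which left 13216 genes. limma 3.58.1 in R 4.3.3 was fitted to log2(FPKM + 1) with a mean-variance trend over all 9 libraries, without a block. Tests were two-sided with Benjamini-Hochberg adjustment over all 13216 genes. Log2 changes on this scale understate those of low genes. The tests were tried on simulated data. All members were accounted for, and up to 4 genes per partner list with the smallest adjusted p were named. Labels do not say whether cultures were derived separately, so p-values measure the spread between these cultures. Alternatives were other pseudocounts, filters, scalings and fits, the replicate block, and leaving out each library. Python 3.11.15, pandas 2.3.3 and matplotlib 3.10.9 joined tables, searched motifs and drew figures.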

Additional observations from a re-analysis of the deposited data

How the results depend on the processing

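No member that passed changed direction under any alternative. Of the 13 that passed between FSB and F, 8 passed under every alternative in which they were tested (NRP2, SEMA3C, SEMA4B, SEMA4F, SEMA4G, PLXNB2, PLXNB3 and PLXDC1), as did 10 of the 13 between F_FSB and FSB, with PLXDC2, PLXNA1 and SEMA3E the exceptions. Among those that kept their calls, PLXNB3 was tested only because of its F cultures and SEMA4D only because of its FSB cultures. PLXDC1 was tested through F and F_FSB, where it was high. Of the members that did not pass, 4 changed sign under at least 1 alternative between FSB and F, 5 between F_FSB and FSB and 11 between F_FSB and F. They did so 13, 24 and 19 times in all. The count of members higher in FSB than in F, 3, became 1 with median ratio scaling and 1 with same sum scaling, and ran from 1 to 4 when a library was left out. The count of members lower in F_FSB than in F, 0, ran from 0 to 2 when a library was left out, with 2 without F replicate 1. For all genes between F_FSB and F, 1 passed in the reported fit, 0 with no filter on low values and 0 with the replicate block, and 0 to 77 passed when a library was left out, with 77 without F replicate 1 and 4 without F replicate 2. Further members passed under single settings: SEMA6C between FSB and F in 5 (limma, BH-adjusted p from 0.0189), SEMA6D between F_FSB and FSB in 3 (from 0.0048), and NRP1, SEMA4C, SEMA5A and PLXNA3 each in 1 setting of a comparison. The cause of these changes was not tested.

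Culture numbers are shared between groups, but the labels do not say that they mark a shared origin. Same-numbered cultures correlated at −0.136 to 0.292 in their deviations from the group means, over 0.1 in 1 of 9 pairs, and 5 of 18 comparisons were best with their own number, so the numbers were not treated as a pairing. With the replicate block, 4 members were higher and 10 lower in FSB than in F, and 9 were higher and 4 lower in F_FSB than in FSB. Where a group was left with 2 cultures, the spread was that of all groups together. Depth limits the genes below 1 FPKM most, SEMA3G, SEMA4A, SEMA5B and the FSB values of PLXNB3, PLXDC1, PLXNA4 and PLXNC1. Without the filter SEMA4A was lower in FSB than in F by −0.37 (limma, BH-adjusted p = 0.0023).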
